A study of Mus musculus with 2 samples.

Results

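The 34 genes described here encode the enzymes that carry long-chain fatty acids into mitochondria and oxidise them, a small peroxisomal set, and 5 regulators or regulated genes. They were looked up by symbol in the gene columns of the 2 tables, and they are 34 of the 24014 gene symbols found in either table. The lookup used no measured value, but the list itself was chosen with earlier results of these data known. The study compared bone marrow of male mice on a high-fat diet with bone marrow of male mice on normal chow, by microwell-based single-cell RNA sequencing (BD Rhapsody), with 1 library per diet. The HFD library came from wild-type mice of the strain given as C57B/6 that ate a diet with 60% fat for 16 weeks. The ND library came from wild-type male mice of the same strain that ate normal chow for the same 16 weeks. The labels describe the mice as young and name no age, no number of animals, no pooling and no sort or gate. With 1 library per diet no test between diets is possible, so differences below describe these 2 libraries, and diet, animal and preparation cannot be told apart.

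Fatty acids are activated to acyl-CoA by long-chain synthetases and cross the mitochondrial membranes as acylcarnitine. CPT1 makes the acylcarnitine at the outer membrane, the translocase SLC25A20 carries it inward, and CPT2 turns it back into acyl-CoA, after which rounds of dehydrogenation, hydration, a further oxidation and thiolysis release acetyl-CoA. The CPT1 step is the main point of control and is inhibited by malonyl-CoA, and several genes of the pathway are classical targets of the PPAR nuclear receptors. Neutrophils lose many of their mitochondria as they mature and draw largely on glycolysis.

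The HFD library held 17282 cells with 117773643 UMIs (molecular tags that count each captured RNA once), and the ND library 16817 cells with 117999042 UMIs. After filters on genes per cell, mitochondrial share and doublets, 15214 HFD and 13890 ND cells were kept, with a median of 4075.5 and 4480 UMIs per cell. The 2 libraries shared 329 cell index numbers, and counts without those cells are given below. Marker genes named cells of 18 classes that each held at least 100 cells in both libraries. They cover stem and progenitor cells (HSPC), 3 neutrophil stages, and the monocyte, macrophage, dendritic, lymphoid, erythroid, megakaryocyte, basophil or mast cell and eosinophil lineages expected of marrow. Each class is "like" cells of its name only by those markers. Cluster 4, with 766 HFD and 685 ND cells, stayed unnamed, and cluster 30, with 397 HFD and 339 ND cells, was neutrophil-like without a stage.

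In each class the UMIs of a gene were summed over cells and divided by the class total, and scaled to a total of 1000000 (CPM), and the ratio of HFD over ND was taken on the log2 scale with an exact conditional binomial 95% interval. A gene was tested where both libraries together held at least 20 of its UMIs, and was called higher or lower at 1.5-fold or more with an interval that left out 0. These intervals cover counting error only, and ignore that UMIs cluster within cells, as well as any difference between animals. In summed counts, fewer expressing cells and less RNA per cell cannot be told apart.

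As a group the 34 genes did not move together between the libraries. Of 34 members, 33 had a column in both tables, and 32 reached 20 UMIs in at least 1 class. Over the 514 member and class pairs tested, 30 were called higher in HFD (5.84%), against 2.7% of all 174383 gene and class pairs. Another 6 were called lower (1.17%), against 2.37% of all pairs. Cpt1a and Slc25a20 made up 16 of the 30 higher pairs, and the other 14 were spread over 10 genes. Without the cells whose index numbers both libraries hold, 31 pairs were higher and 8 lower. The median log2 ratio of the tested members lay close to that of all genes. It was lowest in megakaryocyte-like cells at -0.09 (29 members, interval -0.17 to 0.08), where the median of all genes was -0.08, and highest in NK-like cells at 0.18 (28 members, interval 0.03 to 0.34), where that of all genes was 0.02.

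**Figure D1:**
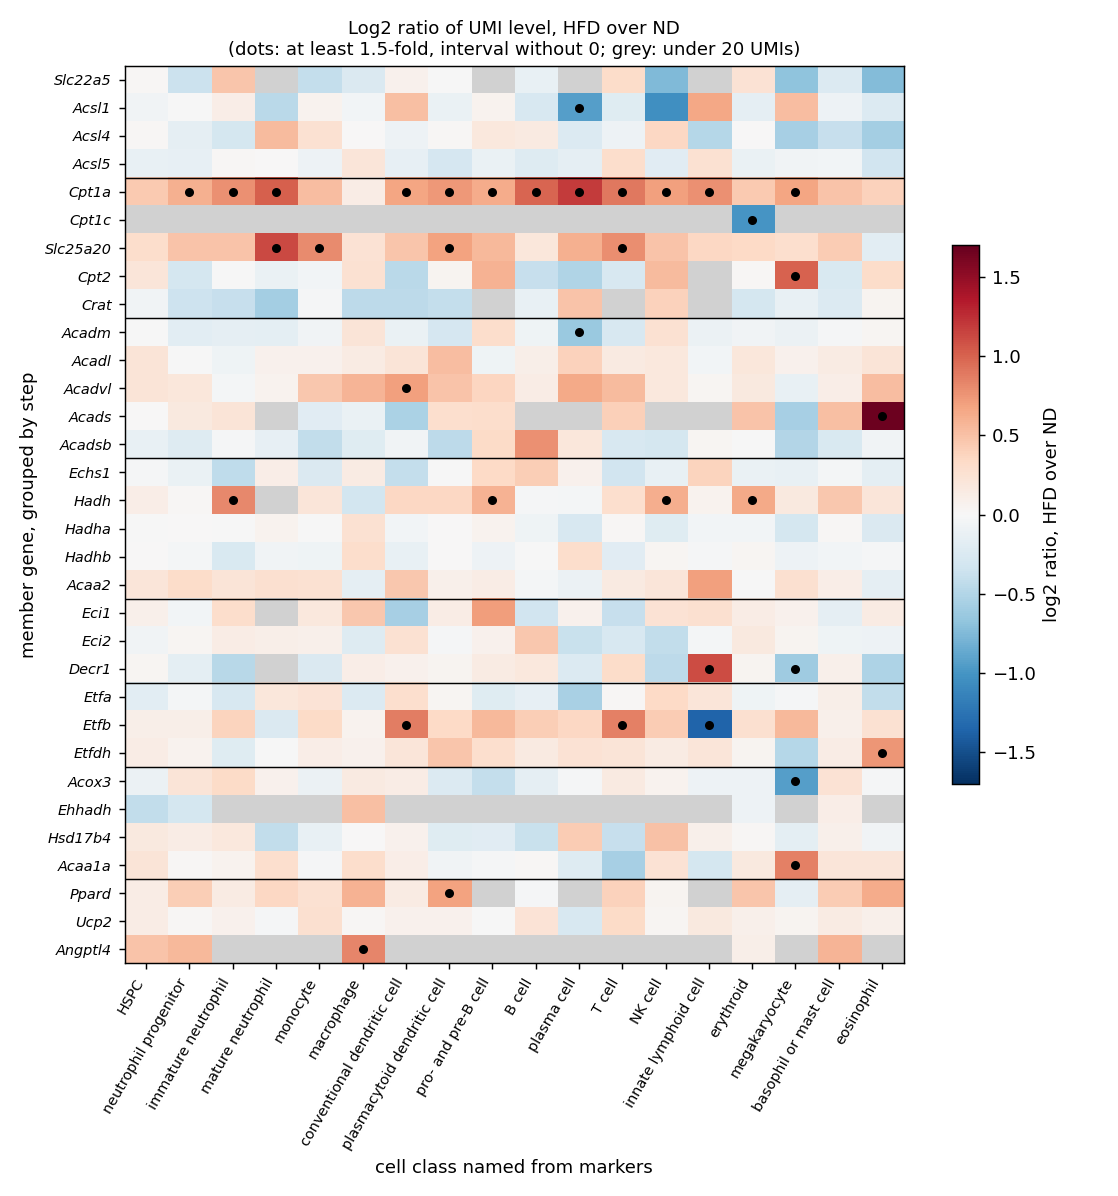
Log2 ratio of UMI level, HFD over ND, for the 32 members that reached 20 UMIs in at least 1 class (rows, grouped by step from uptake at the top to regulators at the bottom) in 18 marker-named classes (columns). Dots mark pairs of at least 1.5-fold whose interval leaves out 0, and grey cells held under 20 UMIs. The row of Cpt1a is above 0 in all 18 classes and that of Slc25a20 in 17, while most other rows stay pale.

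Class by class, the members called were few. In HSPC-like cells 0 of 31 were called, against 1.38% of all genes there called higher and 1.93% lower, and in basophil or mast cell-like cells 0 of 31, against 1.9% and 1.34%. In monocyte-like cells 1 of 29 was higher, against 2.74%, and 0 lower, against 1.79%, and in macrophage-like cells 1 of 31 was higher, against 3.53%, and 0 lower, against 2.23%. Both conventional (background 2.38% higher and 1.87% lower) and plasmacytoid dendritic cell-like cells (2% higher and 1.87% lower) had 3 of 29 members higher and 0 lower.

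Among lymphoid classes, pro- and pre-B cell-like cells had 2 of 26 members higher, against 2.81% of all genes, and 0 lower, against 2.17%. B cell-like cells had 1 of 28 higher, against 2.04%, and 0 lower, against 2.03%. In T cell-like cells 3 of 28 were higher, against 3.2%, and 0 lower, against 1.84%, and in NK-like cells 2 of 28 were higher, against 4.06%, and 0 lower, against 2.38%. Innate lymphoid cell-like cells had 2 of 24 higher, against 3.75%, and 1 lower, against 2.1%. Outside the lymphoid lineage, eosinophil-like cells had 2 of 29 higher, against 3.15%, and 0 lower, against 2.66%. The remaining classes are given with their genes below.

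Cpt1a, the liver-type CPT1 and the entry step of the shuttle, was higher in the HFD library in all 18 classes and was called higher in 12 of them. In mature neutrophil-like cells it stood at 171 CPM in HFD (616 UMIs) and 84.2 CPM in ND (183 UMIs), a log2 ratio of 1.02 (0.78 to 1.27). The ratio was smaller at the earlier stages, at 0.78 in immature cells (0.62 to 0.94) and 0.61 in progenitors (0.50 to 0.72), and it was 1.07 in cluster 30 (0.72 to 1.43). The 3 intervals of mature cells, immature cells and progenitors were not tested against each other. Keeping doublets or clustering at a resolution of 2 brought the progenitor value to 0.54, under the 1.5-fold line, in each case.

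Cpt1a was higher in each of the 6 lymphoid classes as well. Plasma cell-like cells held 59.6 CPM in HFD and 26.2 CPM in ND (89 and 41 UMIs), a log2 ratio of 1.19 (0.64 to 1.76) at the lowest level of any class. B cell-like cells held 219 CPM in HFD and 110.4 CPM in ND, with a ratio of 0.99 (0.78 to 1.20) that was alike in both B cell clusters, at 1.01 and 0.98. T cell-like cells had a ratio of 0.90 (0.63 to 1.17), innate lymphoid cell-like cells 0.77 (0.32 to 1.23), NK-like cells 0.70 (0.35 to 1.05) and pro- and pre-B cell-like cells 0.62 (0.39 to 0.86). The other classes called were plasmacytoid dendritic (0.74), conventional dendritic (0.67) and megakaryocyte-like cells (0.67), of which the last fell to 0.48 with doublets kept and to 0.45 at a clustering resolution of 0.5, under the line in both.

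In 5 of the 6 classes not called, the Cpt1a interval still lay above 0. Monocyte-like cells, which had the highest level in the HFD library, held 297 CPM in HFD and 207 CPM in ND, a ratio of 0.52 (0.43 to 0.61). Their 3 clusters differed in ratio, at 0.74, 0.43 and 0.35, and the middle one, cluster 22, made up 1013 of 1878 HFD and 462 of 1094 ND cells of the class. Basophil or mast cell-like cells stood at 0.49, HSPC-like at 0.45, erythroid-like at 0.44 and eosinophil-like cells at 0.39 (0.02 to 0.76). Macrophage-like cells were the exception, with 231 CPM in HFD and 211 CPM in ND and a ratio of 0.13 (-0.03 to 0.28). Within them cluster 19 held 187 CPM in HFD and 209 CPM in ND, a ratio of -0.16 (-0.43 to 0.11), and cluster 18 stood at 0.24 (0.05 to 0.43).

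Few genes had so even a direction. Of 5386 genes with at least 20 UMIs in every class, 28 (0.52%) were above 0 in all 18 classes, and 5 (0.0928%) were called higher in 12 classes or more. In mature neutrophil-like cells Cpt1a had the 10th highest ratio of 3110 genes with at least 200 UMIs, and in B cell-like cells the 8th of 4561. It was 1304th of 4580 in macrophage-like cells. The classes come from the same 2 libraries, so they are not replicates of a diet difference, and RNA released from other cells would add to every class. Its part was not tested.

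**Figure D2:**
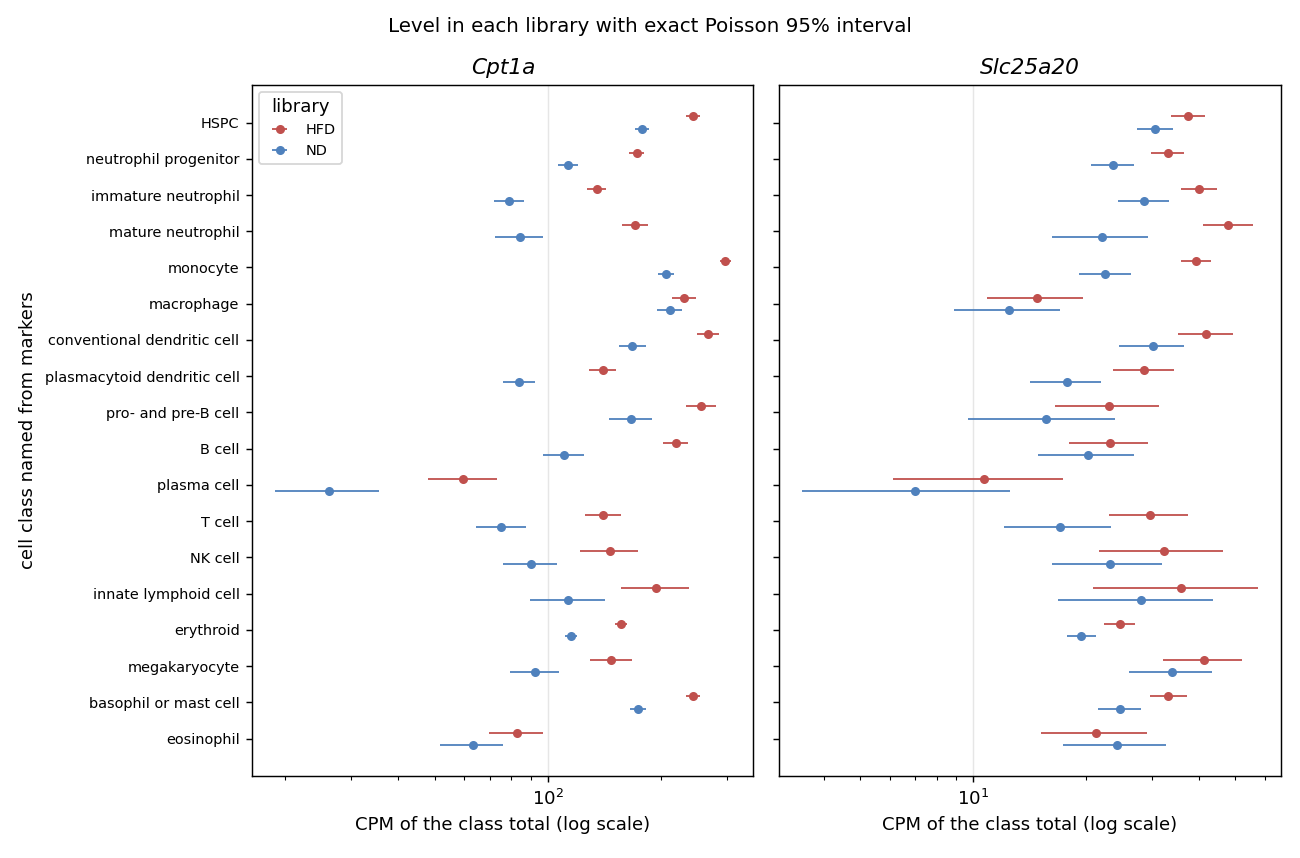
Level of Cpt1a (left) and Slc25a20 (right) in 18 classes, in CPM of the class total on a log axis, with HFD above ND in each class and exact Poisson 95% intervals as bars. For Cpt1a the intervals of HFD and ND overlap in macrophage-like and eosinophil-like cells, and for Slc25a20 they stand apart in the 3 neutrophil stages and in monocyte, plasmacytoid dendritic, erythroid and basophil or mast cell-like cells.

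Slc25a20, the carnitine-acylcarnitine translocase, had a ratio above 0 in 17 classes and was called higher in 4. Mature neutrophil-like cells held 47.9 CPM in HFD (173 UMIs) and 22.1 CPM in ND (48 UMIs), a log2 ratio of 1.12 (0.65 to 1.61), the 6th highest of the 3110 genes there. Both mature clusters were above 0, at 0.97 (0.40 to 1.57) and 1.43 (0.58 to 2.38), and cluster 30 stood at 1.10 (0.51 to 1.71). Progenitor and immature cells had 0.49 each, under the line. Over all neutrophil-like cells the ratio was 0.64 (0.48 to 0.80), which dropped under the line at 0.54 with cluster 4 counted in and at 0.55 with doublets kept.

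Monocyte-like cells held 39.4 CPM of Slc25a20 in HFD and 22.6 CPM in ND (444 and 161 UMIs), a ratio of 0.80 (0.54 to 1.07). Cluster 5 had the widest value of the 3 monocyte clusters at 1.17 (0.76 to 1.59), against 0.64 in cluster 27 and 0.35 in cluster 22. The 8 adipocyte markers summed to 164 CPM in HFD and 72.3 CPM in ND monocyte-like cells, with 0 and 5 at 0. Those at 0 in ND were Adipoq, Plin1, Lep, Retn and Cidec, so the ND sum came from Fabp4, Cfd and Car3 alone. Fabp4 is also among the other PPAR targets below, so the sum is not particular to adipocytes. The part of these markers was not tested. T cell-like cells stood at 0.80 (0.21 to 1.40). Plasmacytoid dendritic cell-like cells stood at 0.69 (0.27 to 1.11), which dropped to 0.55 with doublets kept and to 0.48 at a resolution of 2, under the line. Eosinophil-like cells were the exception at 21.3 CPM in HFD and 24.2 CPM in ND, -0.18 (-0.85 to 0.49). Of the 5386 genes, 52 (0.965%) were called higher in 4 or more classes and 1057 (19.6%) in at least 1.

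Cpt1c, the neuronal CPT1 paralogue, which is found at the endoplasmic reticulum, went the other way from Cpt1a. It reached 20 UMIs in erythroid-like cells alone, with 3.11 CPM in HFD (52 UMIs) and 6.24 CPM in ND (156 UMIs), a ratio of -1.01 (-1.49 to -0.54). Erythroid cluster 0 held 34 HFD and 121 ND UMIs, at -1.32 (-1.91 to -0.76), and cluster 1 held 18 HFD and 35 ND UMIs, at -0.11 (-1.01 to 0.75). Erythroid-like cells were also shallower in HFD, with a median of 20726 UMIs per cell against 24587 in ND, and the part of that difference was not tested. In that class 1 of 32 members, Hadh, was called higher (3.38% of 11409 genes were) and 1, Cpt1c, lower (1.12% were). The downstream partner Cpt2 was called in megakaryocyte-like cells alone, at 26.9 CPM in HFD and 13.4 CPM in ND (45 and 25 UMIs, 1.00, 0.26 to 1.77), and lost that call with doublets kept (0.56). Crat, which moves acyl groups between carnitine and CoA inside mitochondria, was called in no class, with ratios of -0.58 in mature neutrophil-like cells to 0.48 in plasma cell-like cells.

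The start regions of Cpt1a, Slc25a20 and Cpt1c are shown because Cpt1a and Slc25a20 were above 0 in more classes than any other member and Cpt1c, of the same shuttle, was lower. RefSeq (GRCm38.p6) gave start regions, from 250 bases before to 50 bases after the start, for 29 of the 34 members. Each is written 5′ to 3′ on the gene's own strand. Cpt1a lies at chr19:3323051-3323350 (+), Slc25a20 at chr9:108661886-108662185 (+) and Cpt1c at chr7:44974802-44975101 (-). Capitals mark matches, on either strand, to the nuclear receptor motif AGGTCA, the GC box GGGCGG and the CCAAT box, which were the letters searched together with the E-box CACGTG.
Cpt1a: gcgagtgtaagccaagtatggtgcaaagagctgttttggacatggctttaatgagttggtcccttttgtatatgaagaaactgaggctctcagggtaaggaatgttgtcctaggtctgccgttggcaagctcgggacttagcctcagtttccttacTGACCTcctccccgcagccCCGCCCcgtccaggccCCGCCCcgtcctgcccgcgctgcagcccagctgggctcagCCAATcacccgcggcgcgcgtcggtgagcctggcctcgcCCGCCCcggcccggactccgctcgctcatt
Slc25a20: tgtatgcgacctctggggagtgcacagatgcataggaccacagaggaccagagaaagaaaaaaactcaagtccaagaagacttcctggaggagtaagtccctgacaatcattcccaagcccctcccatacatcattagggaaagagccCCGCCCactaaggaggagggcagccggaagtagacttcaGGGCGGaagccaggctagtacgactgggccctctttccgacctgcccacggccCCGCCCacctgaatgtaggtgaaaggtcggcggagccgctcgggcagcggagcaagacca
Cpt1c: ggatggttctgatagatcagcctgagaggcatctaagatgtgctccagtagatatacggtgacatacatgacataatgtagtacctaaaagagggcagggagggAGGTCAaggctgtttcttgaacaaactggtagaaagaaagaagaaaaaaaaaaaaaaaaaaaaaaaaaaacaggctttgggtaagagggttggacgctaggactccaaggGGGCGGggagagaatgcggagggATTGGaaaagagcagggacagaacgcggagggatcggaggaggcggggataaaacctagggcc
In these windows Cpt1a held 1 AGGTCA, 3 GC boxes and 1 CCAAT, Slc25a20 held 3 GC boxes and neither of the others, and Cpt1c held 1 of each. None held CACGTG. The receptor motif AGGTCA was found in 5 of the 29 members (17.2%: Acadm, Acadvl, Cpt1a, Cpt1c and Echs1) and in 16.3% of all 32851 start regions of the same length. The GC box was found in 24 members (82.8%) and 35.7% of all regions, CCAAT in 13 (44.8%) and 37.4%, and CACGTG in 0 and 7.15%. A pair of AGGTCA motifs 1 base apart, the spacing that PPAR and RXR pairs are known to bind, was found in 0 members and 0.0396% of all regions. A match is a run of letters, not a binding site, and some of the regions counted are start sites of non-coding genes.

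At entry and activation 1 pair was called, and the median ratio of the 4 genes differed in direction between classes. The lowest were -0.47 in NK-like, -0.45 in eosinophil-like and -0.31 in megakaryocyte-like cells, where the medians of all genes were 0.02, 0.02 and -0.08. The highest were 0.25 in innate lymphoid cell-like cells, with 3 genes tested, and 0.11 in T cell-like cells, where those of all genes were 0.02 and 0.05. Medians of so few genes carry no interval. Acsl1, a long-chain acyl-CoA synthetase, peaked in immature neutrophil-like cells at 275 CPM in HFD and 255 CPM in ND. It was called in plasma cell-like cells alone, where it was lower in HFD at 12.7 CPM against 24.3 CPM (19 and 38 UMIs, -0.93, -1.81 to -0.10). In that class the 13 immature neutrophil markers summed to 184 CPM in HFD and 2655 CPM in ND, with 2 of the 13 at 0 in HFD (Abca13 and Orm1) and 0 in ND, and their part in the Acsl1 difference was not tested. Of 26 members tested in plasma cell-like cells 1 was higher (2.68% of genes were) and 2 lower (6.2% were). Its ratio was wider in NK-like cells, at -1.04 on few molecules (6 HFD and 22 ND UMIs, -2.63 to 0.31), without being called there. Acsl4, which prefers arachidonate, and Acsl5 were called in no class, nor was Slc22a5, the carnitine importer of the plasma membrane, which had at most 21.1 CPM in any class of either library.

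The 5 acyl-CoA dehydrogenases open each round of oxidation. Acadvl, for very long chains, was above 0 in 16 of 18 classes and was called higher in conventional dendritic cell-like cells, at 26.2 CPM in HFD and 16.1 CPM in ND (87 and 55 UMIs, 0.70, 0.20 to 1.22). Acads, for short chains, was called higher in eosinophil-like cells on few molecules, 24 UMIs in HFD and 7 in ND (1.67, 0.41 to 3.13). Eosinophil-like cells had a median of 1695.5 UMIs per cell in HFD and 2523.5 in ND, and the 15 plasma cell markers summed there to 455 CPM in HFD and 2125 CPM in ND, with 3 and 1 at 0. The part of either difference was not tested. Acadm, for medium chains, was lower in plasma cell-like cells at 24.8 CPM in HFD and 38.3 CPM in ND (-0.63, -1.26 to -0.01), a call lost without the single cell richest in its UMIs (-0.53). Its level was highest in macrophage-like cells, at 241 CPM in HFD and 207 CPM in ND. Acadl was above 0 in 14 of 18 classes and Acadsb, for branched short chains, in 4, with no call for either.

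Hadh, the hydroxyacyl-CoA dehydrogenase for short and medium chains, was the only other member called higher in 4 classes. Erythroid-like cells held 74.8 CPM in HFD and 47.7 CPM in ND (1252 and 1194 UMIs), a ratio of 0.65 (0.53 to 0.76), with 0.55 in cluster 0 and 1.15 (0.85 to 1.45) in cluster 1. Immature neutrophil-like cells held 9.51 CPM in HFD and 5.41 CPM in ND (75 and 32 UMIs, 0.81, 0.20 to 1.46), a call lost with doublets kept (0.47). The calls in NK-like cells (0.62) and in pro- and pre-B cell-like cells (0.59) both ended without the single cell richest in Hadh, at 0.36 and 0.58. NK-like cells also held more of the 19 macrophage markers in HFD, 561 CPM against 185 CPM in ND, with 2 of the 19 at 0 in each library, and less of the 16 basophil or mast cell markers, 445 CPM against 1287 CPM, with 3 and 2 at 0. Pro- and pre-B cell-like cells held 615 CPM of the 11 eosinophil markers in HFD and 33.6 CPM in ND, with 1 and 4 at 0. They held 156 CPM of the basophil or mast cell markers in HFD and 44.8 CPM in ND, with 2 and 7 at 0, and 192 CPM of the 18 mature neutrophil markers in HFD and 81.4 CPM in ND, with 1 and 4 at 0. The part of these markers was not tested. Echs1, the short-chain hydratase, Hadha and Hadhb, the subunits of the trifunctional protein that acts on long chains, and Acaa2, a thiolase, were called in no class. The ratios of Hadha ran from -0.29 in megakaryocyte-like to 0.27 in macrophage-like cells.

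Eci1, Eci2 and Decr1 handle double bonds of unsaturated chains. Eci1 and Eci2 were called in no class. Decr1, the dienoyl-CoA reductase, was called in opposite directions. Innate lymphoid cell-like cells held 44.3 CPM in HFD and 20.6 CPM in ND (21 and 14 UMIs, 1.10, 0.06 to 2.19), and megakaryocyte-like cells held 29.3 CPM in HFD and 44.6 CPM in ND (49 and 83 UMIs, -0.61, -1.15 to -0.08), a call lost with doublets kept (-0.40).

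Electrons from the dehydrogenases pass through ETF, made of the Etfa and Etfb products, to the ubiquinone reductase encoded by Etfdh. Etfb was called higher in conventional dendritic cell-like cells, at 34.6 CPM in HFD and 19.0 CPM in ND (115 and 65 UMIs, 0.86, 0.41 to 1.33), and in T cell-like cells, at 19.9 CPM in HFD and 10.9 CPM in ND (47 and 25 UMIs, 0.86, 0.13 to 1.62). It was lower in innate lymphoid cell-like cells, with 6 UMIs in HFD and 22 in ND (-1.36, -2.95 to -0.01), a call that ended without the single richest cell although the value was then -1.41. Eosinophil markers in T cell-like cells summed to 90.6 CPM in HFD and 40.3 CPM in ND, with 0 and 4 of 11 at 0, and plasma cell markers in innate lymphoid cell-like cells to 198 CPM in HFD and 405 CPM in ND, with 5 and 3 of 15 at 0, and their part was not tested. Over all classes it was above 0 in 16 of 18. Etfdh was called higher in eosinophil-like cells (58 and 32 UMIs, 0.75, 0.10 to 1.42). Etfa, the partner subunit, was called in none of the 18 classes and was above 0 in 8. In cluster 30, by contrast with the staged neutrophil classes, Etfa (29 HFD and 12 ND UMIs, 1.09) and Etfdh (37 and 17 UMIs, 0.94) were called higher and Hadhb (26 and 40 UMIs, -0.80) lower. That made 4 of 23 members higher in cluster 30, where 2.09% of 6281 genes were higher, and 1 lower, where 2.56% were.

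Peroxisomes shorten chains too long for mitochondria. Acox3, an oxidase that makes hydrogen peroxide in the opening step, was highest in B cell-like cells at 85.2 CPM in HFD and 94.3 CPM in ND. It was called in megakaryocyte-like cells alone, with 17 UMIs in HFD and 36 in ND (-0.93, -1.86 to -0.06), which dropped to -0.14 with doublets kept. Acaa1a, the peroxisomal thiolase, was higher in the same class (44 and 27 UMIs, 0.86, 0.13 to 1.61), and lost its call with doublets kept (0.34). Its near-identical copy Acaa1b can share reads, so its counts are uncertain. In megakaryocyte-like cells, 118 in HFD and 144 in ND, 3 of 29 members, Cpt1a among them, were higher (4.79% of genes were) and 2 lower (5.53% were). The class's own 16 markers summed to 19912 CPM in HFD and 10032 CPM in ND, with 0 at 0 in either. Basophil or mast cell markers stood at 642 CPM in HFD and 164 CPM in ND, with 3 and 1 of 16 at 0, macrophage markers at 209 CPM in HFD and 69.4 CPM in ND, with 2 and 3 of 19 at 0, and immature neutrophil markers at 81.9 CPM in HFD and 297 CPM in ND, with 1 and 2 of 13 at 0. Their part in the calls of this class was not tested. Ehhadh reached 20 UMIs in 5 classes and Hsd17b4, the other bifunctional enzyme, in 18, and neither was called.

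Among regulators and regulated genes, the receptor Ppara was all but undetected. It had 1 UMI in the whole HFD library and was listed in that table alone, so it was taken as 0 in ND. Pdk4, a kinase that shuts pyruvate dehydrogenase and a known PPAR target, had 4 UMIs in each whole library and reached the 20 UMI line in no class. Ppard, the widely expressed PPAR, was above 0 in 13 of 15 classes and was called higher in plasmacytoid dendritic cell-like cells at 27.2 CPM in HFD and 16.9 CPM in ND (112 and 80 UMIs, 0.68, 0.26 to 1.12), although it stood at 0.30 with doublets kept. Angptl4, a secreted lipoprotein lipase inhibitor and PPAR target, was called higher in macrophage-like cells at 14.2 CPM in HFD and 8.01 CPM in ND (45 and 25 UMIs, 0.82, 0.09 to 1.59). There the 13 immature neutrophil markers summed to 587 CPM in HFD and 180 CPM in ND, with 1 at 0 in each, and their part was not tested. Ucp2, a mitochondrial carrier and PPAR target, ran from 468 CPM in plasma cell-like to 5435 CPM in pro- and pre-B cell-like cells of HFD, and from 462 CPM in eosinophil-like to 5441 CPM in pro- and pre-B cell-like cells of ND. Its ratios, -0.27 to 0.32, met the size rule in no class.

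The members' levels differed widely between cell classes. The order of the classes was not compared between the libraries, and the top class was not always shared. Slc25a20 was highest in mature neutrophil-like cells of HFD and in megakaryocyte-like cells of ND. Hadh was highest in megakaryocyte-like cells of HFD and in HSPC-like cells of ND. In both libraries, 15 members had their lowest level in mature neutrophil-like cells: Acsl5, Acadl, Acads, Echs1, Hadh, Hadha, Hadhb, Acaa2, Eci1, Eci2, Decr1, Etfa, Etfb, Etfdh and Hsd17b4. All but Acsl5 and Hsd17b4 act in mitochondria after the shuttle. They are 46.9% of the 32 members with at least 200 UMIs over the 18 classes, and 31.7% of all 12148 such genes were lowest there. Several rest on few UMIs, down to 3 in HFD and 1 in ND for Acads and 2 in HFD and 1 in ND for Decr1 in mature cells. Macrophage-like cells had the top level of Acadm, Hadhb, Hsd17b4, Crat and Angptl4 in both libraries, and erythroid-like cells that of Acsl5, Acadl, Acadvl, Acaa2, Eci2, Etfa and Etfdh. Levels were compared within a gene only, since a gene's capture differs from another's.

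**Figure D3:**
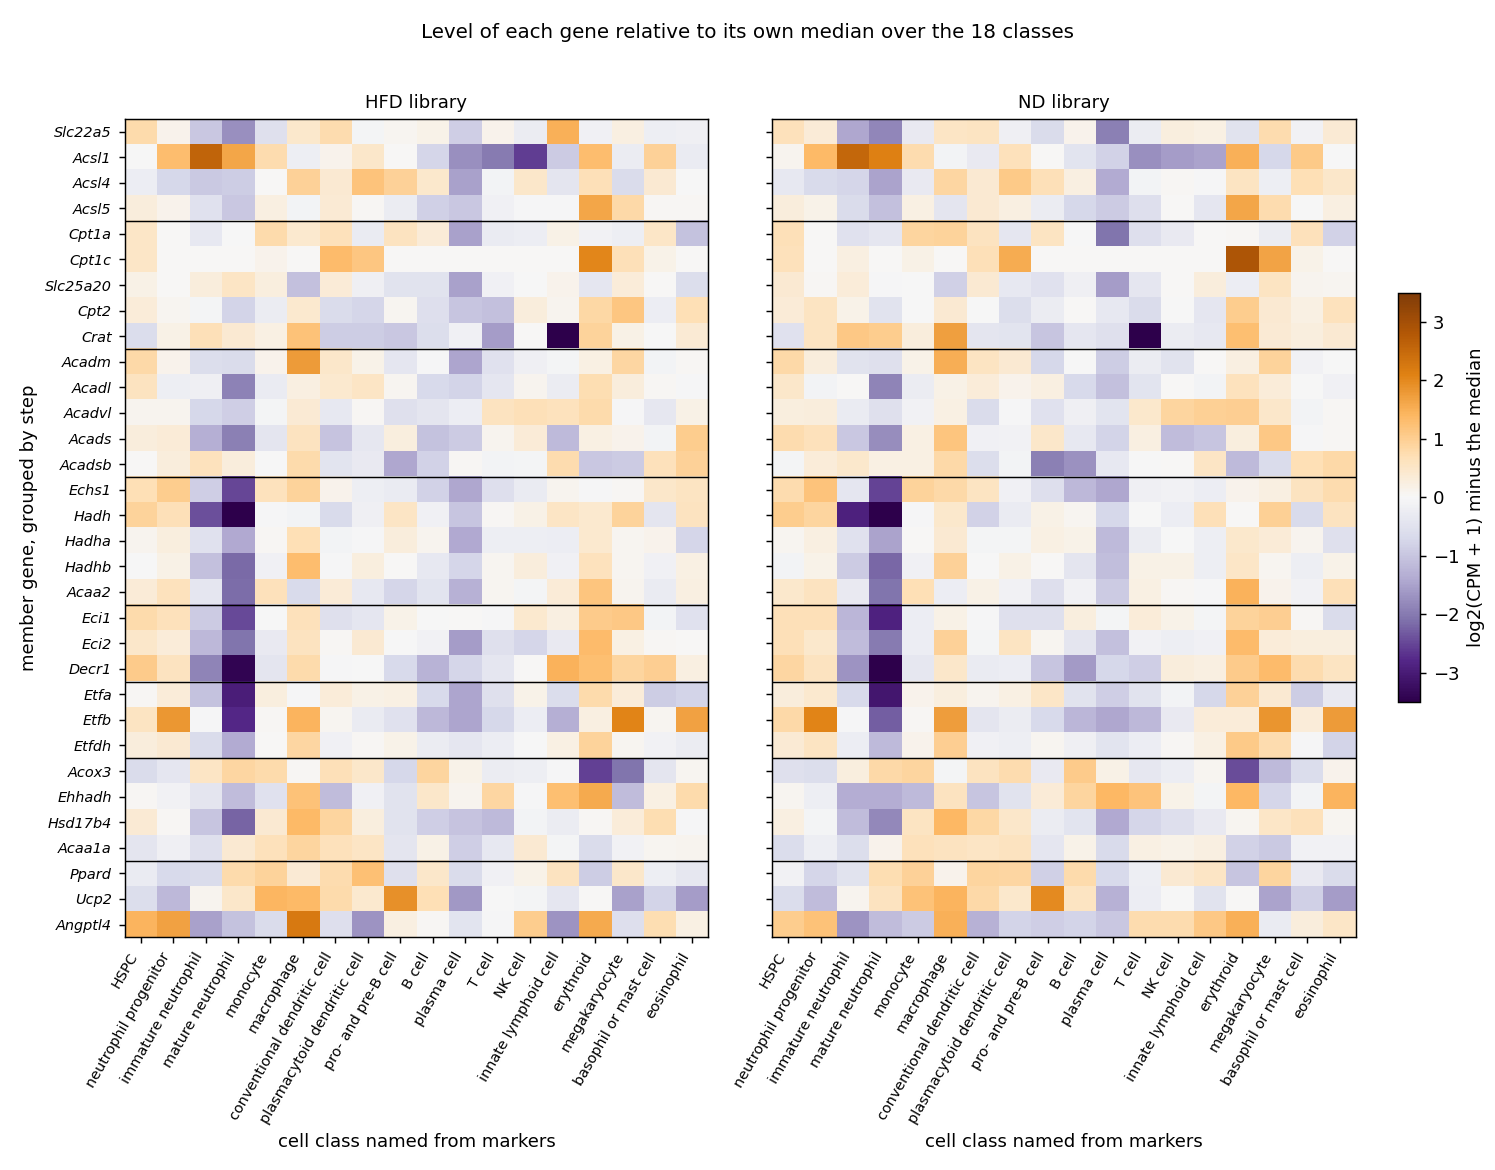
Level of each of 32 members relative to its own median over 18 classes, as log2(CPM + 1) minus that median, in the HFD (left) and ND (right) libraries. The column of mature neutrophil-like cells is dark for most of the matrix enzymes from Acadl to Etfdh in both libraries, though not for Acadsb, while Acsl1, Acox3, Ppard and Ucp2 are above their medians there.

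Across neutrophil maturation the shares of members that were lower or higher were near those of all genes. Of 27 members with at least 200 UMIs in mature and progenitor neutrophil-like cells together, 20 (74.1%) had a lower level in mature cells in both libraries, as had 69.4% of all 8540 such genes, and 6 (22.2%) had a higher one, as had 27.1%. These counts set no minimum on the difference, and Cpt1a and Acadsb in HFD were at 0.989 times the progenitor level. Hadh went down stage by stage. It stood at 88.9, 9.51 and 2.22 CPM in progenitor, immature and mature cells of HFD and at 88.1, 5.41 and 2.76 CPM in those of ND. Etfb stood at 3.88 CPM in mature against 119 CPM in progenitor cells of HFD, and at 4.60 CPM against 111 CPM in those of ND. The 6 members that were higher in mature cells were Acsl1, Crat, Acox3, Acaa1a, Ppard and Ucp2. Ucp2 was 3.22 times as high in mature as in progenitor cells of HFD and 3.31 times in ND, and Acox3 was 2.42 and 2.67 times as high.

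Among those 27, Slc25a20 was the member whose direction between progenitor and mature cells differed between the libraries. It was 1.45 times as high in mature as in progenitor cells of HFD, at 33.1, 40.1 and 47.9 CPM over the 3 stages, and 0.937 times in ND, at 23.6, 28.6 and 22.1 CPM. Cpt1a was 0.989 times as high in mature as in progenitor cells of HFD and 0.743 times in ND. The difference between the libraries in these stage ratios was not tested. In mature neutrophil-like cells 2 of 24 members were called higher, against 2.07% of 7479 genes, and 0 lower, against 3.78%. In immature cells 2 of 29 were higher, against 2.15% of 9898 genes, and in progenitors 1 of 31 was, against 1.46% of 10931 genes, with 0 lower in either, against 1.78% of genes in each.

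**Figure D4:**
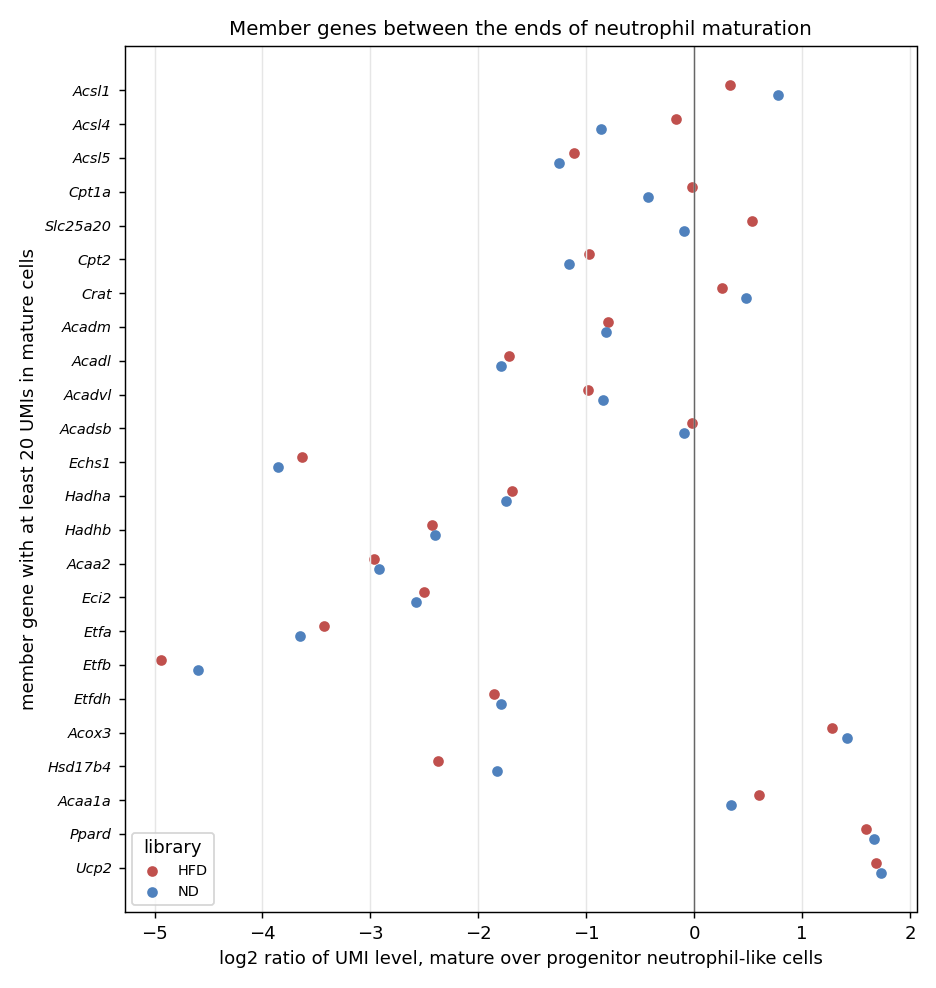
Log2 ratio of level in mature over progenitor neutrophil-like cells for the 24 members with at least 20 UMIs in mature cells, with the HFD point above the ND point in each row. Most points lie left of 0, those of Hadha to Etfdh far left, and Slc25a20 has its HFD point right of 0 and its ND point left of it.

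The rest of the pathway was read from lists of genes that are not members, over all neutrophil-like cells. The mix of stages in that sum differed, with mature cells at 9.79% of kept cells in HFD and 6.12% in ND, mature markers at 15955 CPM in HFD and 13150 CPM in ND, and cluster 24 the largest in HFD against cluster 12 in ND. Its part in the values of the other lists was not tested, and their medians by stage are given beside them. For the members, each cluster was also given the same weight in both libraries. Of 38 called values over all classes, 37 then kept direction and call and 1 kept direction alone. In the sum 1.82% of 11915 genes were called higher and 2.01% lower, and of the members 2 of 31 were higher, Cpt1a and Slc25a20, and 0 lower. Of 42 further oxidation genes 0 were higher, with a median ratio of -0.16 against -0.03 for all genes. Within stages it was -0.08 in progenitors, -0.13 in immature and -0.06 in mature cells. The 3 called lower, named here after their values were seen, were Acsl3 (71 HFD and 108 ND UMIs, -0.93), Pex11a (53 and 65 UMIs, -0.62) and Ppargc1b (89 and 107 UMIs, -0.59). The widest ratios among those with 200 UMIs or more were Mlycd (malonyl-CoA decarboxylase, -0.43), Acss1 (mitochondrial acetyl-CoA synthetase, -0.36), Hibch (-0.32) and Echdc1 (-0.28), all under the line. In mature cells Mlycd went the other way at 0.77 (34 HFD and 12 ND UMIs, -0.21 to 1.86), while Hibch stood at -0.26. Of 23 genes of the tricarboxylic acid cycle and pyruvate import none met the size rule (median -0.07), the widest being Idh3b (-0.26), Sdhc (-0.17), Idh3g (-0.16) and Mpc2 (-0.15). Their median was 0.05 in progenitors, -0.03 in immature and -0.23 in mature cells, where 1 of 21, Sucla2, was called lower (39 HFD and 38 ND UMIs, -0.69). The 6 other kinases and phosphatases of pyruvate dehydrogenase gave no call in the sum, with Pdp1 at -0.49, Pdk1 at -0.26, Pdk2 at 0.19 and Pdp2 at -0.19. Their median was -0.04 in progenitors, -0.07 in immature and -0.30 in mature cells. In progenitors 1 of 6 was called lower, and in mature cells 1 of 4, Pdpr (15 HFD and 20 ND UMIs, -1.15).

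Other PPAR targets held more calls, on a list that, like the others, was chosen with earlier results of these data known. Of 15 tested, 5 were higher and 1 lower (Pex11a, which both lists hold), with a median of 0.20 (interval -0.22 to 0.84). The median was 0.20, 0.19 and 0.03 in progenitor, immature and mature cells. Acot1, whose cytosolic product splits acyl-CoA into free acid and CoA, reached 58.4 CPM in HFD and 12.0 CPM in ND (1414 and 232 UMIs), a ratio of 2.29 (2.08 to 2.49). Its paralogue Acot2 is near-identical, so the split of reads between them is uncertain, and Acot2 stood at 0.42 (0.12 to 0.72). Plin2, which coats lipid droplets, stood at 55.1 CPM in HFD and 36.1 CPM in ND (0.61, 0.48 to 0.75), and Lpl at 0.58 (0.18 to 0.98), just under the line. Lpl stood at -0.09 (-0.85 to 0.70) in mature cells. The other 3 called higher, named after their values were seen, were Cd36, a fatty acid importer (135 HFD and 19 ND UMIs, 2.51), Fabp4, a fatty acid binding protein (105 and 47 UMIs, 0.84), and Creb3l3 (58 and 26 UMIs, 0.84). Cd36 and Ace were among the 10 leading genes of monocyte cluster 22, with 1013 HFD and 462 ND cells. Ace was also among those of immature neutrophil cluster 11, with 24 HFD and 3 ND cells. The part of monocyte RNA in the Cd36 ratio was not tested. In mature neutrophil-like cells Acot1 reached 2.88 (2.49 to 3.30) and Plin2 1.07 (0.79 to 1.36), and in HSPC-like cells Acot1 stood at 1.41 (1.19 to 1.63) and Plin2 at 0.22 (-0.09 to 0.52). Of 7 partners of the receptors 1 was higher, Pparg (47 HFD and 22 ND UMIs, 0.77), and 0 lower, and among those with 200 UMIs or more Rxrb stood at 0.24, Med1 at -0.06 and Ncoa1 at -0.05. The median of the partners was 0.01 in progenitors, 0.28 in immature and -0.08 in mature cells, with 1 of 7 called higher in immature cells.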

How the data were processed

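Bone marrow was profiled cell by cell for RNA in 2 groups, HFD and ND, with 1 library each. The authors deposited counts of molecules (UMIs, after RSEC correction) for each gene in each cell, from version 1.9.1 of the BD WTA Rhapsody pipeline and a custom reference, per the file headers. Its build and annotation are not given in the sources, and start regions carry RefSeq's own build. All values were whole numbers. Genes were matched by symbol, with a symbol listed in one table alone taken as 0 in the other, and 20478 of 24014 symbols were in both.

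A floor of 200 detected genes and a ceiling of 25% mitochondrial UMIs removed 1632 HFD and 2515 ND cells. Scrublet, run per library at an expected rate of 5%, then removed 436 HFD (2.79%) and 412 ND (2.88%) cells. Clustering in scanpy 1.11.5 (Python 3.11.15) used counts scaled to 10000 per cell, 2000 variable genes, 30 components, 15 neighbours and Leiden resolution 1, with no batch integration, and split the cells into 33 groups. Each was named by counting class markers in its 50 leading genes by fold (pseudocount of 10 CPM, detected in 10% of its cells). It needed at least 3 markers, and no more markers of another class among its top 10 genes. After the clusters were seen, the 3 neutrophil stages were counted as 1 class before a cluster stayed unnamed, which named cluster 30.

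UMIs were summed per class and library. Ratios carry exact conditional binomial 95% intervals and levels exact Poisson ones, both for counting error only. Where a library had 0 UMIs of a gene, 3 stood in as the floor. Totals of 117773643 (HFD) and 117999042 (ND) UMIs set the precision. With 1 library per diet the text gives intervals and no p-values. The ratio script was tested on simulated counts. Calls, lists and alternatives cover pair counts, medians and single ratios. Members, gene lists, motifs and printed start regions were chosen with earlier results of these data known. Values are given for members that met the size rule or stood highest or lowest across classes, and for the 4 widest ratios on at least 200 UMIs in each list of other genes, of which 1 gene is not reported here. The 5 antibody tags were not used.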

Additional observations from a re-analysis of the deposited data

Results flagged for a closer look

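Decr1 was called in opposite directions in 2 classes. Its log2 ratio of HFD over ND was 1.10 in innate lymphoid cell-like cells (21 HFD and 14 ND UMIs) and -0.61 in megakaryocyte-like cells (49 HFD and 83 ND UMIs). Etfb stood at 0.86 in conventional dendritic cell-like cells and 0.86 in T cell-like cells, but at -1.36 in innate lymphoid cell-like cells (6 HFD and 22 ND UMIs). With 1 library per diet the difference between classes was not tested in any of these cases.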

How the results depend on the processing

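No paired analysis was possible because each diet had 1 library and the labels give no replicate numbers. Over the alternatives planned, 21 to 35 member and class pairs were higher in HFD, against 30 as reported. The count of lower pairs, 6 as reported, was 12 with each cell scaled before averaging and 2 with a minimum of 100 UMIs, which tests fewer pairs (379). Cpt1a was called higher in 8 to 12 classes and was above 0 in every class tested under every alternative. Only 17 classes were tested with cells thinned to 1000 UMIs, and 17 without the filters on genes and mitochondrial share. Without those filters 33 of the 38 called values could be compared, of which 28 kept direction and call and 5 kept direction alone. Slc25a20 was called in 3 to 5 classes.

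Thinning leaves fewer UMIs: of 38 called values 11 kept direction and call, 26 kept direction alone, and Hadh in NK-like cells turned to -0.85 on 22 UMIs. It moved the member medians to -0.019 in macrophage-like, -0.0017 in pro- and pre-B cell-like, 0.38 in megakaryocyte-like and 0.14 in basophil or mast cell-like cells. Doublets kept ended 11 of 38 calls and a resolution of 0.5 ended 7, with no direction turned, and 5 of the 7 were in megakaryocyte-like cells. Leaving out the cells with shared index numbers ended 1 call, Hadh in NK-like cells (0.56). Chosen after seeing the data were that alternative, leaving out cluster 11 (24 HFD and 3 ND cells), which ended 0 calls, and counting cluster 4 as neutrophil, which ended 1 of 2. Calls on under 100 UMIs rest on few molecules and describe these libraries alone.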
